A study of Homo sapiens with 6 samples.

Results

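The genes described here are 43 human genes of DNA replication that license origins, start and run the replication fork, synthesise and join DNA, and rebuild chromatin behind the fork. They were taken from a list of gene symbols, and every probe set whose single platform symbol was on that list was used, which gave 105 probe sets for 43 of 43 genes among 18132 named genes on the array. The samples were HCT116 cells, an established human colorectal cancer line, collected 72 h after transduction with a lentivirus that encoded a short hairpin RNA (shRNA). In 3 samples the hairpin was directed against PNO1 (sh-PNO1) and in 3 it was a control hairpin (sh-Ctrl), so lentiviral transduction was common to both groups and no untransduced cells were compared. PNO1 is a nucleolar protein needed for maturation of 18S ribosomal RNA and of the small ribosomal subunit. The labels name a single hairpin against PNO1, so the loss of PNO1 and any other effect of that hairpin cannot be told apart. No label ties the replicates to separate cultures, and every p-value therefore speaks only for the spread among these 6 arrays, part or all of which could be technical. Each sample was measured on 1 Affymetrix array, as intensity on a linear scale.

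A cell licenses its origins in G1 phase, when the origin recognition complex (ORC) with CDC6 and CDT1 loads the MCM helicase onto DNA, and geminin then holds CDT1 back so that no origin is used again in the same cycle. In S phase CDC45 and the GINS complex join the MCM ring to form the active helicase, polymerase alpha with primase lays primers, the clamp loader RFC places the sliding clamp PCNA on the primed DNA, and polymerases epsilon and delta extend the strands. Many of these genes are transcribed from late G1 onward under E2F transcription factors, so their messenger RNA is high in dividing cells and low in resting ones. In a bulk sample a smaller share of cells in S phase and less of a transcript in each cell cannot be told apart.

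The targeted gene was checked first. PNO1 had intensities of 105, 108 and 105 in sh-PNO1, against 535, 535 and 532 in sh-Ctrl. It retained 19.8% of the control signal (log2 fold change −2.33 ± 0.041 SE, adjusted p = 3.32e-07), and its other 2 probe sets retained 28.7% and 29.1%. Its groups were apart on all 3 probe sets, each with p = 0.1 in a two-sided exact permutation test, and no smaller p is possible with 3 arrays a group. Epithelial markers of the line differed widely in level. EPCAM was bright, at a mean of 1908 in sh-PNO1 and 1998 in sh-Ctrl. CEACAM5 and VIL1 were dim, at 9.89 and 4.38 in sh-PNO1, against 10.2 and 4.88 in sh-Ctrl. CDX1 was also dim, at 23.0 in both groups, and CDX2 stood at 67.2 in sh-PNO1 and 63.3 in sh-Ctrl. Of markers of other cell types, 4 of 5 for leukocytes, 5 of 5 for fibroblasts and 4 of 4 for endothelium were measured and had intensities of 3.44 to 39.7, with PTPRC, COL3A1 and LUM below 10 in both groups. Their sums were 38.6 to 40.8 in sh-PNO1 and 35.9 to 36.9 in sh-Ctrl for leukocytes, 38.7 to 42.1 in sh-PNO1 and 39.1 to 40.7 in sh-Ctrl for fibroblasts, and 86.4 to 90.3 in sh-PNO1 and 80.4 to 89.3 in sh-Ctrl for endothelium. The summed epithelial markers were 9805 to 10217 in sh-PNO1 and 9081 to 9469 in sh-Ctrl. Of these, KRT19 rose by 0.37 and CDH1 by 0.31 on the log2 scale, and the other 8 did not pass. The part of these markers in the results was not tested. The difference between 3′ and 5′ signal of ACTB, a measure of RNA quality, was 2.25 on the log2 scale for sh-PNO1 replicate 2, against 1.73 to 1.87 for the remaining arrays. The same difference for GAPDH moved with the groups, at −0.056, −0.077 and −0.058 in sh-PNO1, against −0.028, −0.024 and −0.013 in sh-Ctrl, without overlap. Its part in the results was not tested. Without sh-PNO1 replicate 2, 35 of the 43 genes below fell and 3 rose.

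Most replication genes were lower after PNO1 knockdown. Taking the brightest probe set of each gene over the 6 arrays as its leading one, 37 of 43 genes fell, 3 rose (ORC4, POLD2 and POLE4) and 3 did not pass (RPA1, RNASEH2A and TIPIN) at an adjusted p under 0.05 in limma. Over the leading probe sets of all 18132 genes 13.2% fell and 18.4% rose, and over all 49293 probe sets tested 28.0% passed, 13.2% lower and 14.8% higher. The median log2 fold change (sh-PNO1 minus sh-Ctrl) was −0.47 over the 43 genes, with a range of −1.26 to 0.44, and 0.025 over all genes. In 20 of the 43 genes the change was −0.5 or below, against 3.90% of all genes, and in 2, RFC5 and MCM10, the level fell by at least 2-fold, against 0.734%. The arrays of the groups did not overlap in 42 of the genes, 38 with every sh-PNO1 array below every sh-Ctrl array, against 18.4% of all genes, and 4 above, against 26.3%.

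The split of calls over the whole array depended on scaling: 47% of passing probe sets were lower as deposited and 28.7% when arrays were set to equal means of 11 housekeeping genes, which moved the median of all probe sets to 0.077. On that scaling 35 of the 43 genes fell and 4 rose, TIPIN (0.19) among them, while PCNA (−0.12) and ORC5 (−0.11) no longer passed.

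**Figure D1:**
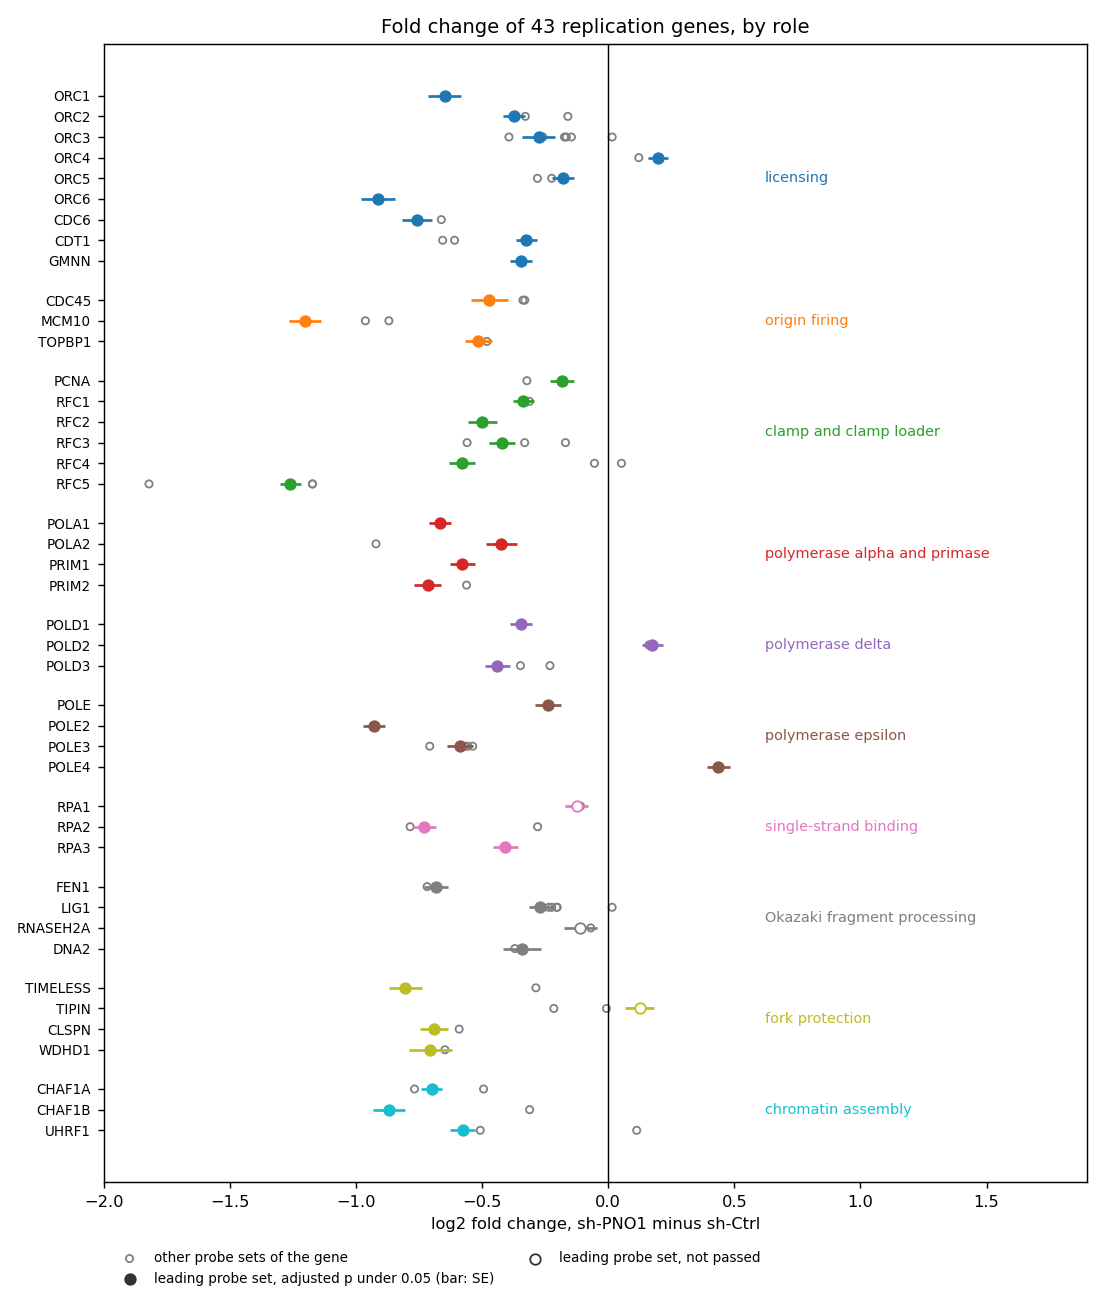
Log2 fold change, sh-PNO1 minus sh-Ctrl, of the 43 genes grouped by role; filled points are leading probe sets that passed, white ones did not, bars are SE, and small grey circles are the other probe sets of the gene. RFC5 and MCM10 lie farthest to the left, and ORC4, POLD2 and POLE4 are the filled points right of 0.

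The same was seen on each array. The median of the 43 genes relative to the sh-Ctrl mean was −0.49 in sh-PNO1 replicate 1, −0.42 in replicate 2 and −0.53 in replicate 3, against −0.005, 0.016 and −0.012 in the 3 sh-Ctrl arrays. Thus 39 of the genes were below the control mean on every one of the sh-PNO1 arrays taken singly. That share was not counted over all genes. RPA1 and RNASEH2A, which did not pass, are among them, with RNASEH2A at only −0.0007 in sh-PNO1 replicate 2. At the level of single probe sets, 81 of 105 fell, 4 rose and 20 did not pass. Among the 32 genes with several probe sets, all of them fell in 19, against 5.77% of the 11734 such genes on the array, and no gene had probe sets that passed in opposite directions. Opposite calls were not counted over all genes.

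**Figure D2:**
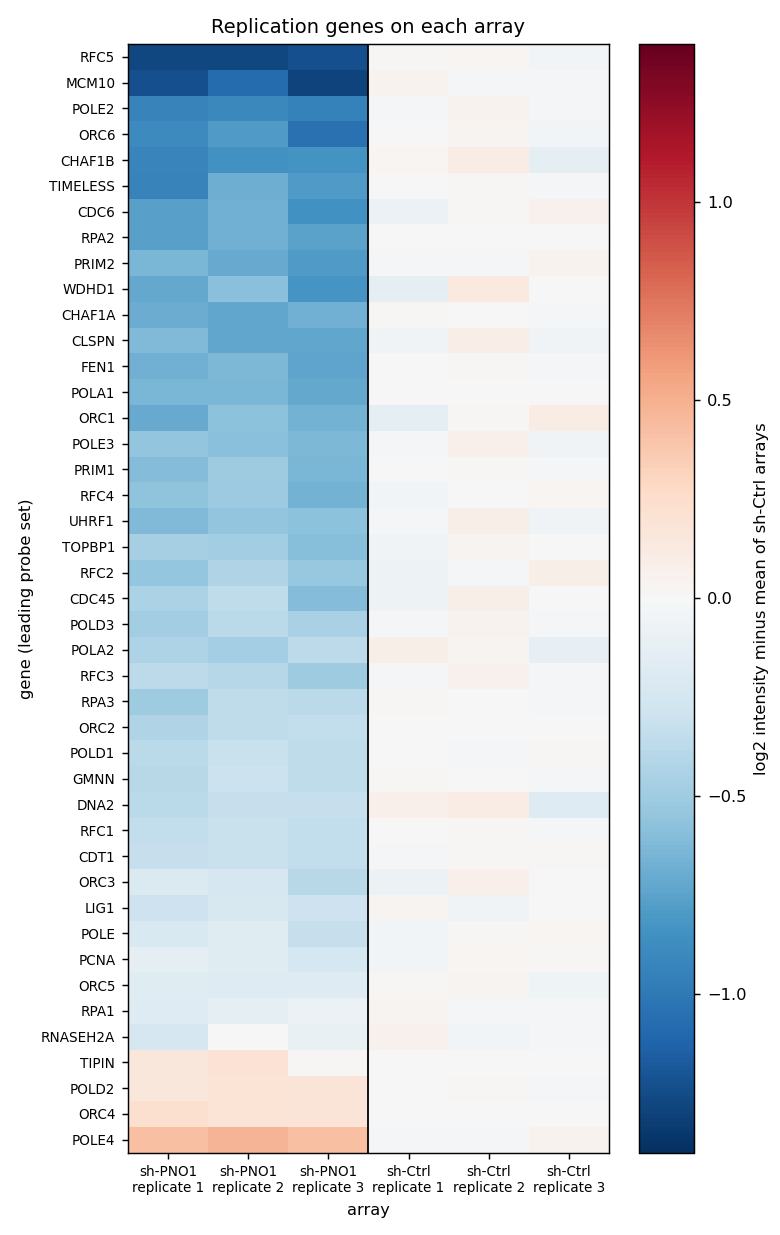
Log2 intensity of each gene's leading probe set on each array, relative to the mean of the sh-Ctrl arrays, with genes ordered by fold change. Blue columns of sh-PNO1 stand beside nearly white columns of sh-Ctrl, and POLE4, ORC4, POLD2 and TIPIN at the bottom are the genes with red cells in sh-PNO1.

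Promoter sequence was looked at because so many of these genes moved one way. RefSeq (GRCh38.p14) promoter windows, 250 bases before to 50 after a transcription start, were matched by symbol for 39 of the 43 genes. They were searched on both strands for 4 forms of the E2F site, TTTCCCGC, TTTCGCGC, TTTGCCGC and TTTGGCGC, and for the CCAAT box, which can share an end base with them. A gene with several windows (9 of the 39) was counted once if any of them held a match. At least 1 of the E2F forms was present in 16 of 39 genes (41%), against 3.99% of 27305 genes with a window and 5.4% of 15842 protein-coding ones. CCAAT was present in 23 of 39 (59%), against 39.7% of all genes and 42.1% of protein-coding ones. The base composition of the windows was not matched. Among the genes with a form, 14 of 16 fell, with a median change of −0.38, and among the 23 without one 19 fell, with a median of −0.58.

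Stretches of 8 promoters are shown, 90 bases before to 10 after the start, as the strand of the gene reads, to set the genes with the largest falls beside others that hold a form. Capitals mark a form, on either strand. RFC5 and MCM10, which fell most, hold none of the forms in their windows.
RFC5, chr12:118016613-118016712 (+): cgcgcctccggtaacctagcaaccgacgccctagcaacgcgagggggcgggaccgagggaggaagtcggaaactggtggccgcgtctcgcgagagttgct
MCM10, chr10:13161468-13161567 (+): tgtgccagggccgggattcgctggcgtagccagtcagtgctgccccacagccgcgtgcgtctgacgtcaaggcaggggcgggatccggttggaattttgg
In POLE2 and CLSPN the form lies across the start of transcription.
POLE2, chr14:49688205-49688304 (−): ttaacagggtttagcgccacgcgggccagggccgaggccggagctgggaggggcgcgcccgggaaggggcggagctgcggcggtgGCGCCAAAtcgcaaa
CLSPN, chr1:35769969-35770068 (−): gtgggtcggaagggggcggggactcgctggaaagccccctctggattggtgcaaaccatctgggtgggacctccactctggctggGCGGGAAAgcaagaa
In POLA2, RFC3 and PCNA it lies upstream of the start. PCNA also has a window with none of the forms, and the window printed was picked because it holds a form.
POLA2, chr11:65261872-65261971 (+): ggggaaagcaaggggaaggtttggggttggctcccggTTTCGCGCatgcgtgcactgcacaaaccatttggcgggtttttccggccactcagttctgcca
RFC3, chr13:33818059-33818158 (+): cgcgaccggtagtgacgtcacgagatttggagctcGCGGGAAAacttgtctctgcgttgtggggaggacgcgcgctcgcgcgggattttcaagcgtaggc
PCNA, chr20:5126613-5126712 (−): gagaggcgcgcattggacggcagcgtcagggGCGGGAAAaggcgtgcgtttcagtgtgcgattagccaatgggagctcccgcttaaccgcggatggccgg
POLE4 rose and holds a form as well.
POLE4, chr2:74958553-74958652 (+): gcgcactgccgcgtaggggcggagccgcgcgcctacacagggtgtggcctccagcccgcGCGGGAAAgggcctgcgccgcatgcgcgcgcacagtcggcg
Among members not shown, the form begins at −137 from the start in POLA1 (−0.67), −114 in LIG1 (−0.27) and −80 in GMNN (−0.34). It begins at −35 in CDT1 (−0.33), −18 in POLE (−0.24), −12 in ORC3 (−0.28), −7 in TOPBP1 (−0.52) and 8 in CDC6 (−0.76). UHRF1 (−0.58) holds forms at −160 and −14 in separate windows, and TIPIN (0.12) at −66 and −62. No relation of position to change was tested. A match of letters is a description of the sequence and shows no binding.

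Of the 9 licensing genes 8 fell and ORC4 rose, with a median change of −0.34. ORC6, the smallest ORC subunit, fell most. It had intensities of 239.6, 257 and 215 in sh-PNO1, against 444, 459 and 434 in sh-Ctrl (log2 fold change −0.91 ± 0.068 SE, adjusted p = 5.09e-05). All sh-PNO1 arrays were far below the sh-Ctrl arrays, though more spread (SD 21.2 in sh-PNO1 and 12.7 in sh-Ctrl). CDC6, the ATPase that joins ORC to load the helicase, had 428, 453 and 403 in sh-PNO1, against 682, 733 and 755 in sh-Ctrl (log2 fold change −0.76 ± 0.061 SE, adjusted p = 7.06e-05). The other CDC6 probe set fell by 0.66. ORC1, the large subunit that comes and goes with the cell cycle, had 42.5, 46.5 and 43.8 in sh-PNO1, against 63.8, 70.4 and 74.4 in sh-Ctrl (log2 fold change −0.65 ± 0.066 SE, adjusted p = 0.000234). Its groups did not overlap, and it has 1 probe set.

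The other ORC subunits moved less. ORC2 changed by −0.37, with 2 of 3 probe sets lower. ORC3 changed by −0.28, with 4 of 7 lower, and did not pass without sh-Ctrl replicate 2 (adjusted p = 0.0616) or replicate 3 (0.0550). ORC5 changed by −0.18 and all 3 of its probe sets fell, though the leading one did not pass without sh-Ctrl replicate 1 or 2 or without sh-PNO1 replicate 2 or 3 (adjusted p = 0.0513 to 0.0632). ORC4, the subunit that went the other way, had 429.9, 421 and 418 in sh-PNO1, against 368, 368 and 371 in sh-Ctrl (log2 fold change 0.20 ± 0.040 SE, adjusted p = 0.00767). Its groups lay close together without overlap. Its other 2 probe sets stood at 0.12 and 0.20 and did not pass (adjusted p = 0.118 and 0.0899).

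CDT1, the partner of CDC6 in helicase loading, fell by 0.33 on its leading probe set and by 0.61 and 0.66 on the others. GMNN, which encodes the CDT1 inhibitor geminin, fell by a similar amount (log2 fold change −0.34 ± 0.044 SE, adjusted p = 0.000731). The transcripts of the inhibitor and of its target were thus both lower, and protein was not measured.

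All 3 origin firing genes fell on all of their 8 probe sets. MCM10, which acts on the loaded helicase as it is switched on, had 145, 159.7 and 137 in sh-PNO1, against 349, 335 and 331 in sh-Ctrl. The sh-PNO1 level was 2.30-fold lower (log2 fold change −1.20 ± 0.062 SE, adjusted p = 9.73e-06), and the other 2 probe sets fell by 0.87 and 0.96. TOPBP1, a scaffold that brings firing factors to the origin and activates the ATR kinase, had 390.4, 385 and 355 in sh-PNO1, against 521, 553 and 541 in sh-Ctrl (log2 fold change −0.52 ± 0.053 SE, adjusted p = 0.000237). The sh-PNO1 values all lay below 400. CDC45, the helicase partner, changed by −0.47, and by −0.33 and −0.34 on its other probe sets.

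The clamp and all 5 subunits of its loader fell. RFC5, a small loader subunit, had the largest change of the 43 genes, with 165, 165 and 169.8 in sh-PNO1, against 403, 407 and 388 in sh-Ctrl. It kept 41.8% of the control level (log2 fold change −1.26 ± 0.043 SE, adjusted p = 1.94e-06), and it had rank 55 from the lowest change among 18132 genes. The other probe sets of RFC5 fell by 1.17, 1.17 and 1.82. RFC4 had 672, 695 and 626 in sh-PNO1, against 967, 999 and 1009.5 in sh-Ctrl (log2 fold change −0.58 ± 0.052 SE, adjusted p = 0.000129). Its other 2 probe sets, at intensities of 3.05 to 4.61, did not pass. RFC2 changed by −0.499, RFC3 by −0.42 with 3 of 4 probe sets lower, and RFC1, the large subunit, by −0.34 with 3 of 3.

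PCNA, the clamp, moved least in this group. It had 2439, 2371 and 2251 in sh-PNO1, against 2610.1, 2717 and 2694 in sh-Ctrl (log2 fold change −0.18 ± 0.048 SE, adjusted p = 0.0221), so the sh-PNO1 arrays were lower without overlap but by little. The call of PCNA did not hold without sh-Ctrl replicate 2 or 3 or without sh-PNO1 replicate 2 or 3 (adjusted p = 0.0519 to 0.0729). The other, dimmer PCNA probe set fell by 0.32.

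**Figure D3:**
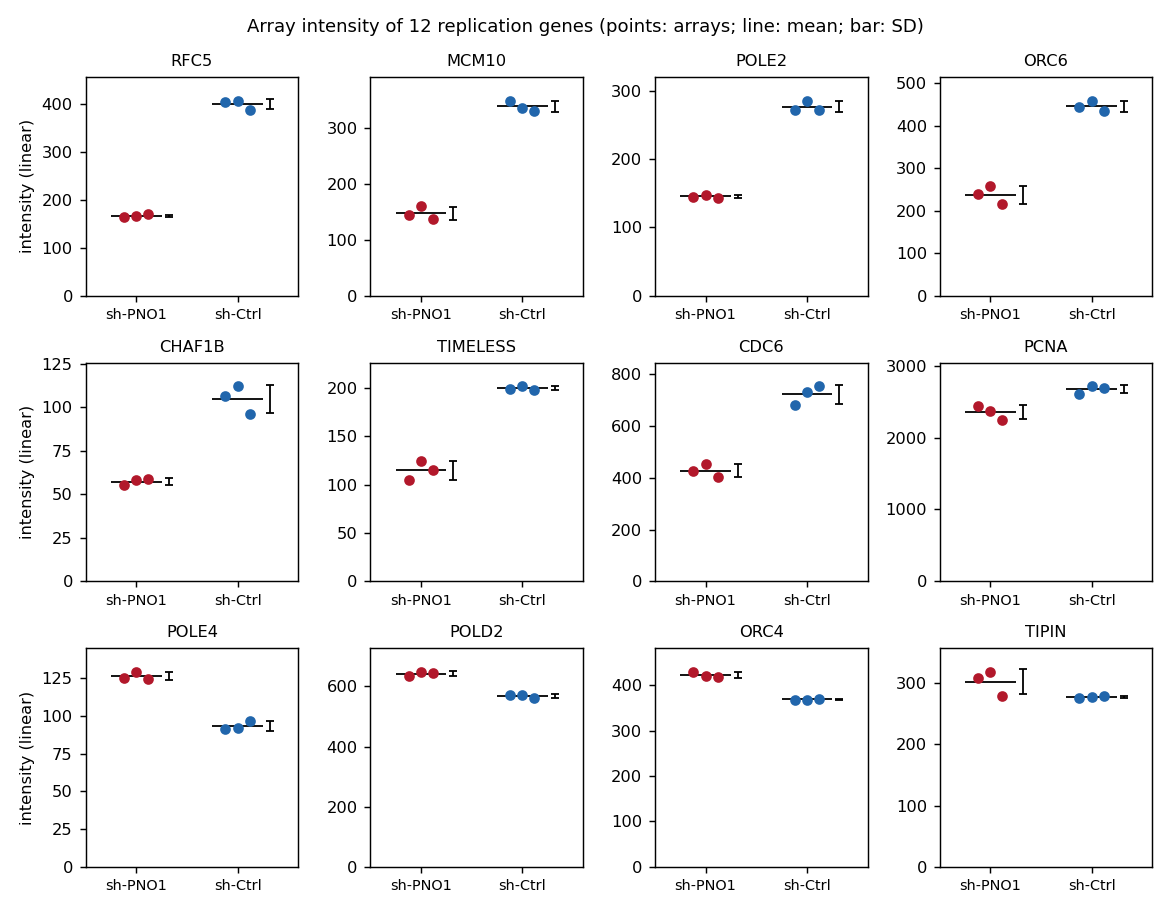
Array intensity on a linear scale starting at 0 for 12 of the genes, sh-PNO1 left and sh-Ctrl right; points are arrays, horizontal lines are means and bars are SD (n = 3). The groups are far apart for RFC5, MCM10 and POLE2, close for PCNA, and in the other order for POLE4, POLD2, ORC4 and TIPIN.

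Polymerase alpha and primase fell as a whole, with 4 of 4 genes and 6 of 6 probe sets lower. PRIM2, the large primase subunit, had 65.7, 62.5 and 58.9 in sh-PNO1, against 101, 100.1 and 106 in sh-Ctrl (log2 fold change −0.72 ± 0.053 SE, adjusted p = 5.06e-05). POLA1, the catalytic polymerase subunit, had 149, 149 and 141 in sh-PNO1, against 231, 233 and 231 in sh-Ctrl (log2 fold change −0.67 ± 0.044 SE, adjusted p = 2.8e-05). The 3 control values of POLA1 lay within a few units of each other, and all 3 sh-PNO1 values were below 150. PRIM1, the catalytic primase subunit, had 352, 379 and 344 in sh-PNO1, against 537, 541 and 527 in sh-Ctrl (log2 fold change −0.58 ± 0.050 SE, adjusted p = 0.0001). POLA2, the accessory subunit, changed by −0.42 on its leading probe set and by −0.92 on a dimmer one.

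In polymerase epsilon, which extends the leading strand, 3 subunits fell and 1 rose. POLE2, the second subunit, had 145, 148 and 143 in sh-PNO1, against 273, 286 and 272 in sh-Ctrl (log2 fold change −0.93 ± 0.044 SE, adjusted p = 6.3e-06). POLE3, a histone-fold subunit, had 426, 417 and 406 in sh-PNO1, against 615, 659 and 604 in sh-Ctrl (log2 fold change −0.59 ± 0.050 SE, adjusted p = 9.58e-05), and 5 of its 5 probe sets fell. The catalytic subunit POLE changed by a smaller −0.24 ± 0.053 SE. POLE4, the histone-fold partner of POLE3, had 125, 129 and 125 in sh-PNO1, against 91.4, 91.9 and 96.9 in sh-Ctrl (log2 fold change 0.44 ± 0.045 SE, adjusted p = 0.000261). Its single probe set was thus higher on every sh-PNO1 array than on any sh-Ctrl array.

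Polymerase delta, which works mainly on the lagging strand, was also divided. The catalytic subunit POLD1 changed by −0.35, and POLD3 by −0.44 with 2 of 3 probe sets lower. POLD2, the accessory subunit that holds them together, had 633, 649 and 644 in sh-PNO1, against 573, 573 and 560.1 in sh-Ctrl (log2 fold change 0.18 ± 0.041 SE, adjusted p = 0.0138). Its other probe set rose by 0.16. POLD4, a further subunit listed with the other DNA polymerases, changed by −0.31 with 3 of 3 probe sets lower.

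Of the single-strand binding complex RPA, RPA2 and RPA3 fell and RPA1 did not pass. RPA2, the middle subunit, had 432, 458 and 437 in sh-PNO1, against 736, 733 and 729 in sh-Ctrl (log2 fold change −0.73 ± 0.044 SE, adjusted p = 1.82e-05). A second RPA2 probe set fell by 0.79, but the remaining one stood at −0.28 (adjusted p = 0.0566) and stood for RPA2 when the test left out probe sets of the _x_at and _s_at kinds, which can match several transcripts. RPA3 changed by −0.41. RPA1, the large subunit, stood at −0.125 ± 0.046 SE (adjusted p = 0.0811) although its groups did not overlap, and it passed under 3 alternatives, a variance model with both an intensity trend and a robust prior (adjusted p = 0.0111), an offset of 16 before log2 (0.0253) and its probe sets averaged (0.0260).

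Among genes that finish Okazaki fragments, 3 of 4 fell. FEN1, the flap endonuclease, had 366, 377 and 350.1 in sh-PNO1, against 587, 593 and 574 in sh-Ctrl (log2 fold change −0.68 ± 0.046 SE, adjusted p = 3.2e-05). All 3 of its probe sets fell, by 0.68 to 0.72. The ligase LIG1 changed by −0.27, with 5 of 6 probe sets lower between −0.20 and −0.27 and the dimmest at 0.015. DNA2, a nuclease and helicase for long flaps, changed by −0.34, a call that did not hold without sh-Ctrl replicate 1 (adjusted p = 0.0512) or sh-PNO1 replicate 1 (0.0514). RNASEH2A, the catalytic subunit of RNase H2, stood at −0.11 (adjusted p = 0.260), and its groups overlapped on both probe sets.

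Of the fork protection genes TIMELESS, CLSPN and WDHD1 fell on each of their probe sets. TIMELESS, which keeps the helicase and polymerases together with TIPIN, had 105, 124 and 115 in sh-PNO1, against 199.5, 202 and 198 in sh-Ctrl (log2 fold change −0.80 ± 0.065 SE, adjusted p = 7.22e-05). Its other, dimmer probe set fell by 0.29. CLSPN (claspin), which carries the checkpoint signal from ATR to CHEK1, had 41.6, 38.8 and 38.7 in sh-PNO1, against 62.0, 68.2 and 62.0 in sh-Ctrl (log2 fold change −0.69 ± 0.057 SE, adjusted p = 8.02e-05). WDHD1, a trimeric hub that ties polymerase alpha to the helicase, had 55.6, 60.8 and 51.4 in sh-PNO1, against 82.9, 99.9 and 90.9 in sh-Ctrl (log2 fold change −0.71 ± 0.084 SE, adjusted p = 0.000521). None of these genes had overlapping groups.

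TIPIN, the partner of TIMELESS, stood at 0.12 ± 0.057 SE (adjusted p = 0.150). Its intensities were 309, 319 and 279.6 in sh-PNO1, against 276, 277 and 278 in sh-Ctrl. The other probe sets stood at −0.007 and −0.22 (adjusted p = 0.928 and 0.113), so the sign for TIPIN depended on the probe set: the mean of its probe sets was −0.033 (adjusted p = 0.628). A further probe set that names TIPIN with ribosomal protein genes was left out.

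The chromatin genes all fell. CHAF1B, a subunit of the CAF-1 complex that deposits histones H3 and H4 on new DNA, had 55.1, 58.3 and 58.6 in sh-PNO1, against 106, 112 and 96.0 in sh-Ctrl (log2 fold change −0.87 ± 0.065 SE, adjusted p = 4.89e-05). The other CHAF1B probe set, also dimmer, fell by 0.31. CHAF1A, the large CAF-1 subunit, had 172, 168 and 175 in sh-PNO1, against 281, 280.4 and 275 in sh-Ctrl (log2 fold change −0.70 ± 0.042 SE, adjusted p = 1.75e-05), and its other 2 probe sets fell by 0.49 and 0.77. UHRF1, which guides the maintenance methyltransferase DNMT1 to newly copied DNA, had 465, 488 and 481 in sh-PNO1, against 698, 753 and 691 in sh-Ctrl (log2 fold change −0.58 ± 0.050 SE, adjusted p = 0.000105). Another UHRF1 probe set fell by 0.51, and a dim one stood at 0.11 (adjusted p = 0.146).

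The size of the measured change varied among subunits of 1 complex, which is given here as a description. The leading changes spanned 1.37 log2 units in polymerase epsilon (POLE2 to POLE4), 1.11 in ORC (ORC6 to ORC4) and 0.92 in the clamp loader (RFC5 to RFC1). They spanned 0.61 in polymerase delta (POLD3 to POLD2) and 0.60 in RPA (RPA2 to RPA1). Polymerase alpha and primase spanned 0.29, and the large CAF-1 subunits CHAF1B and CHAF1A 0.17. RBBP4, the small CAF-1 subunit, is in a further list and was left out of that span. It stood at −0.097 (adjusted p = 0.280) on its leading probe set and fell by 0.83 on a dimmer one. For 4 pairs, chosen after their values were seen, the within-array log2 ratio, set to a mean of 0 over the sh-Ctrl arrays, was compared between groups. POLE2 over POLE4 was shifted by −1.37 in sh-PNO1, with arrays at −1.38 to −1.36 in sh-PNO1, against −0.080 to 0.071 in sh-Ctrl. The shift was −1.11 for ORC6 over ORC4, −0.93 for TIMELESS over TIPIN and −0.52 for POLD1 over POLD2. All of these used leading probe sets. On other probe sets TIMELESS changed by −0.29 and TIPIN by −0.007 and −0.22, so the TIMELESS and TIPIN shift is smaller there. As the pairs were chosen for their unequal changes, these shifts are a description, with no test.

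**Figure D4:**
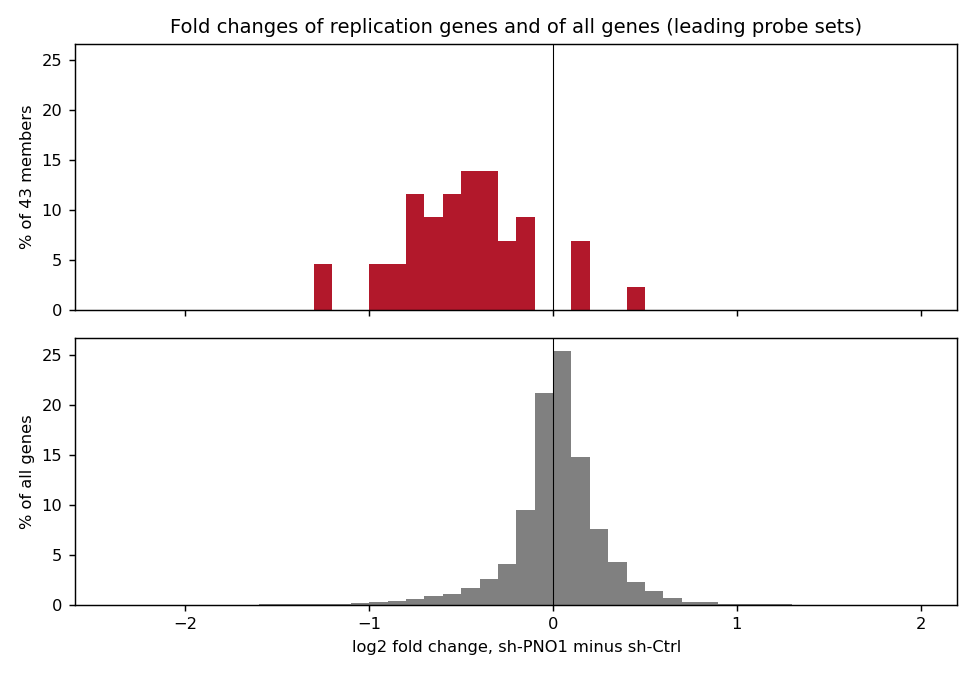
Share of genes in bins of 0.1 of the log2 fold change, sh-PNO1 minus sh-Ctrl, for the 43 replication genes (top) and all 18132 genes (bottom), by leading probe set and on the same vertical scale. The replication genes centre on a median of −0.47 and all genes on 0.025.

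Tested with limma's treat against a log2 change of 0.5, 8 of the 43 passed, all lower, against 1.58% of all genes lower and 0.767% higher. They were RFC5, MCM10, POLE2, ORC6, CHAF1B, RPA2, CHAF1A and TIMELESS (adjusted p = 4.20e-05 to 0.0420), each by its leading probe set.

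The rest of the replication pathway was read from 73 further genes in 8 lists. Of these 40 fell, 10 rose and 23 did not pass, with a median of −0.21, against 13.2% lower and 18.4% higher over all genes. In the helicase core 8 of 10 fell, with GINS1 at −1.31, MCM2 at −1.13 and GINS2 at −0.98, while MCM6 rose by 0.58 with 2 of 3 probe sets higher. On its other, much dimmer probe sets GINS1 fell by 0.30 and 0.44. Of 12 firing kinases and factors 8 fell, among them MTBP (−0.79) and TICRR (−0.64), which help load CDC45, and the kinase gene CDC7 (−0.45). CCNE1, cyclin E1, rose by 0.23 on 1 of 2 probe sets.

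Of 9 genes of histone supply and methylation maintenance 7 fell and 0 rose. MMS22L, which protects stalled forks, changed by −0.84, the histone chaperone ASF1B by −0.70 and the chaperone NASP by −0.51. On its other probe set MMS22L fell by only 0.16. Of 8 alternative loaders and clamps 5 fell, including ATAD5 (−0.72), which helps unload PCNA, and DSCC1 (−0.51). HUS1, a subunit of the checkpoint clamp, rose by 0.98 with 3 of 3 probe sets higher. Of 9 nucleases, ligases and topoisomerases 3 fell, EXO1 (−0.58), RNASEH2B (−0.44) and PCLAF (−0.17). Of 8 fork checkpoint and remodelling genes 4 fell, among them the translocase ZRANB3 (−0.45), the ubiquitin ligase TRAIP (−0.34) and the kinase ATR (−0.29).

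The further DNA polymerases moved both ways, 4 lower and 5 higher of 12. PRIMPOL (−0.64), which reprimes stalled forks, and POLQ (−0.54), which joins broken ends, fell. POLK (0.34) and POLH (0.33), which copy past damaged bases, REV3L (0.25), the catalytic subunit of polymerase zeta, POLM (0.26) and the repair polymerase POLB (0.19) rose. POLM passed on 1 of 5 probe sets and POLK on 3 of 5. Of 5 genes for ubiquitin-dependent removal of licensing factors, DTL, which marks CDT1 for destruction in S phase, changed by −0.86, while CUL4B rose by 0.48 and SKP2 by 0.65 on 1 of 2 probe sets.

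**Figure D5:**
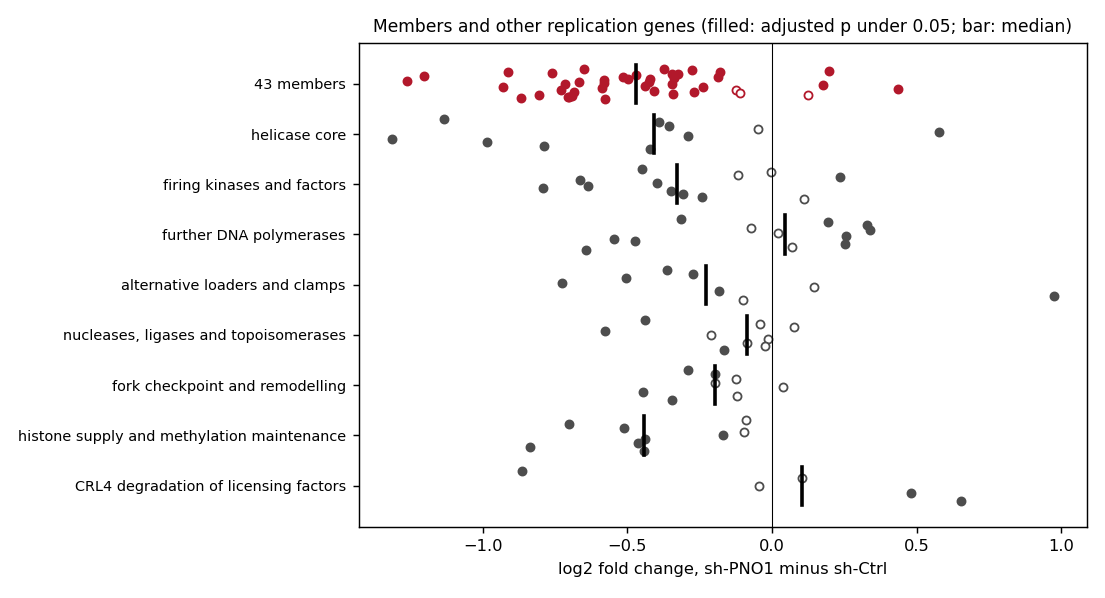
Log2 fold change, sh-PNO1 minus sh-Ctrl, of the 43 genes and of 8 further lists of replication genes; filled points passed an adjusted p of 0.05 and black bars are list medians. Medians lie between −0.44 and 0.105 in the further lists, against −0.47 in the 43 genes.

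Background limits these levels. The 23 background probe sets of the array had mean intensities of 2.53 to 773, and 4 of the 43 leading probe sets had a group mean above all of them, while none was in the dimmest 30% of probe sets. A probe set near its own background understates the change of its gene.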

How the data were processed

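The authors deposited linear intensities made with RMA, per the submitters' processing notes, whose version is not stated. RMA combines the probes of each set and brings arrays to a common distribution, so each change is relative to the other genes and an overall rise or fall of messenger RNA is not seen. Per the labels' protocols 100 ng of total RNA was labelled as biotinylated cRNA. The software and annotation build were not given in the sources used here. Of 49395 probe sets 102 controls were left out; 44988 of the rest had 1 symbol in the platform's gene table, 1832 several and 2473 none listed. Log2 was taken with no filter or offset, and limma 3.58.1 under R 4.3.3 (lmFit and eBayes, sh-PNO1 minus sh-Ctrl, 3 arrays each) was applied to all 49293 probe sets with Benjamini-Hochberg adjustment over all of them; the step was tested on simulated data. A gene was counted by its brightest probe set and passed at an adjusted p under 0.05. The gene symbols were found by gene identifier in the GRCh38.p14 table.

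The members and lists were chosen with earlier results of these data known. Values of all arrays are printed for genes that passed with a change of at least 0.5 or rose, and for each further list the 3 genes of smallest adjusted p and those that rose are named. POLD4 is also named, as a subunit of polymerase delta. TIPIN, PCNA and the 4 within-array ratios were given in more detail after their values were seen. Groups and replicate numbers came from the titles. The labels do not say that numbers pair samples, so no block was used in the main fit. Deviations from the group means correlated at −0.036, 0.097 and −0.032 for same-numbered arrays. For differently numbered arrays they correlated at −0.054 to 0.087, so these values do not settle whether numbers pair samples. Median intensities were 25.6 to 25.9 on every array, and log2 values correlated at 0.9981 to 0.9987 within groups and 0.9916 to 0.9929 between them. The number of arrays limits the precision. Alternatives were other variance models, array weights, repeated normalisation, housekeeping scaling, an offset of 16, filters on dim or cross-matching probe sets, other ways to choose 1 value per gene, stricter thresholds, the replicate block and each array left out.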

Additional observations from a re-analysis of the deposited data

How the results depend on the processing

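Of the 37 genes that fell, 32 also passed as lower under each of the 18 alternatives that kept the threshold and could measure them, and 7 under all 20. Leaving out single arrays gave 34 to 36 lower and 3 to 4 higher of the 43 genes, 35 to 39 lower and 8 to 10 higher of the 73 others, 5220 to 5662 probe sets lower and 5614 to 6274 higher, and a PNO1 change of −2.35 to −2.32. With the replicate number as a block 36 of the 43 fell and 3 rose, and PCNA lost its call (adjusted p = 0.0502). Tested against a log2 change of 0.5, the counts were 8 lower and 0 higher of the 43, 6 and 1 of the 73, and 711 and 252 of all probe sets, since a larger change was asked for. At an adjusted p under 0.01, 4294 probe sets were lower and 4372 higher, and without probe sets of the _x_at and _s_at kinds, when fewer were tested, 4136 and 4575; that setting ended the calls of RPA2 (−0.28, adjusted p = 0.0604) and ORC4 (0.12, 0.136) and measured 39 of the 43 genes. Equal housekeeping means gave 11833 probe sets higher, as that scaling moved the median log2 change of all probe sets from 0.012 to 0.077. Why the housekeeping genes differed between groups was not tested. TIPIN changed sign with probe sets averaged (−0.033) and with the most variable probe set (−0.22), passing in neither. It passed as higher without sh-PNO1 replicate 3 (0.18, adjusted p = 0.0319) and with equal housekeeping means. Settings with 1 value per gene give no count of probe sets.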
